A study of Mus musculus with 20 samples.

Results

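Anti-Mullerian hormone (AMH), the bone morphogenetic proteins (BMPs) and the receptors they share were followed over the ovaries of 2 mouse lines in 2 stages of the estrous cycle. The 10 genes were listed by name, with earlier results of these data known. The list holds the hormone gene *Amh*, its type II receptor *Amhr2* and the BMP ligands *Bmp2*, *Bmp4* and *Bmp6*. It also holds the type II receptor *Bmpr2*, the type I receptors *Bmpr1a*, *Bmpr1b* and *Acvr1*, and the BMP antagonist *Grem1*. These are 10 of the 54838 genes counted, and each was found by its Ensembl identifier.

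AMH is made by the granulosa cells of growing follicles, where it restrains the recruitment of resting follicles and lowers the response to FSH. AMH and BMPs bind a complex of type II and type I receptors, and the type I receptor then phosphorylates the receptor-regulated SMADs of the BMP branch, which join SMAD4 and enter the nucleus. AMHR2 serves AMH alone, whereas the type I receptors BMPR1A, BMPR1B and ACVR1 serve AMH and BMPs both. Gremlin-1 is a secreted protein that binds BMP2 and BMP4 and keeps them from their receptors.

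The ctrl line and the high-fertility line FL1 were bred at Dummerstorf from the same outbred founder population, which had been made by crossing inbred and outbred lines. FL1 was selected for litter size and litter weight, and ctrl was kept without selection; each line is 1 breeding population, so that selection and drift cannot be told apart. All females were labelled wild type and 77 days old. Stage was read from vaginal smears. Both ovaries of a female were taken and freed of fat, oviduct and tunica, and ovary samples gave the RNA. The 4 groups crossed line (ctrl or FL1) with stage (estrus or diestrus), with 5 females and 5 libraries in each. Sequencing reads were taken from the 3' ends of polyadenylated RNA (QuantSeq), and levels are given as CPM, that is counts divided by a library size corrected with TMM factors. Since such reads mark the end of a transcript and do not scale with its length, levels are compared between libraries and not between genes.

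The 20 libraries held 5991223 to 10352718 counts (median 6957533). No pair of libraries of a group agreed within sampling noise. Summed oocyte and granulosa cell markers were present in every library, at 149 to 513 CPM and 1392 to 4803 CPM. The library of ctrl estrus replicate 5 stood apart from its group: its granulosa sum of 1392 CPM lay under the 2396 to 3767 CPM of the other 4, its luteal sum of 46225 CPM lay over their 17188 to 34228 CPM, and its mean correlation with them was 0.937, against 0.954 to 0.960 for the others. Calls of the 10 genes, and calls given for other genes, that changed without ctrl estrus replicate 5 are given both ways. Ctrl diestrus replicate 5 had a summed blood marker level of 432 CPM, beside 1860 to 2810 CPM in the rest of its group. Its macrophage sum was 306 CPM, beside 170 to 223 CPM. Its mean correlation with its group, 0.956, lay within the 0.956 to 0.961 of the others. These are whole ovaries, so fewer cells of a type and less RNA per cell cannot be told apart.

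Promoters are shown for the 3 genes whose levels differed between stages. The 250 bases before the transcription start were taken from RefSeq (GRCm38.p6), which held a promoter for 8 of the 10 genes; *Amh* and *Bmp2* had no entry. Capitals mark motifs that were searched by their letters on both strands: CAAGGTCA, the site of the NR5A nuclear receptors, GGCGCC, a GC-rich SMAD motif, GGGCGG, the GC box, and CCAAT. No pair of marked motifs shares bases. The sequences are those of *Amhr2* (chr15:102445117-102445366, plus strand), *Grem1* (chr2:113758649-113758898, minus strand) and *Bmpr2* (chr1:59764029-59764278, plus strand), each written 5' to 3' along its gene. For *Bmpr2* the RefSeq start lies downstream of the annotated gene start at chr1:59763400, so its 250 bases fall within the annotated gene. Distances of motifs are counted from the RefSeq start.
Amhr2: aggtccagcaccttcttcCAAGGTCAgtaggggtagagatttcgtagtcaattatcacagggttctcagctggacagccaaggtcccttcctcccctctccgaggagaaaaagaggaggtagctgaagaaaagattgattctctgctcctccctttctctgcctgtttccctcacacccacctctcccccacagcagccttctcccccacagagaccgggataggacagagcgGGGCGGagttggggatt
Grem1: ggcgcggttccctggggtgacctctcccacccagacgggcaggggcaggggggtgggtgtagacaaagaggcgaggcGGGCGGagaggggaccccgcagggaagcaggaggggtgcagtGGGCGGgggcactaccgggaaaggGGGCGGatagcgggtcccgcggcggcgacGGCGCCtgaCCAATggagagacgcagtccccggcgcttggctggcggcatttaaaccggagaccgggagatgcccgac
Bmpr2: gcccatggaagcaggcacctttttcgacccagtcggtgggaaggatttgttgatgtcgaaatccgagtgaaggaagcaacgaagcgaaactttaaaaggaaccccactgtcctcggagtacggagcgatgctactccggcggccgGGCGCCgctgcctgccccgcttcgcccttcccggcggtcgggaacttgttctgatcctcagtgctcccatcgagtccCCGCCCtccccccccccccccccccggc

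The NR5A site of *Amhr2* began 232 bases before the start, and 1.33% of 32851 promoters of this length held these letters. A GC box, present in 32.7% of promoters, lay 17 bases before the start. *Grem1* had GGCGCC at 78 bases, 3 GC boxes and a CCAAT box at 69 bases before the start, and *Bmpr2* had GGCGCC at 105 bases and a GC box on the other strand. GGCGCC was in 9.59% of all promoters and CCAAT in 33.8%. The letters TGACGTCA of the cAMP response element (1.55% of promoters) and TATAAA of the TATA box (12.4%) were in none of the 3. A match of letters is a description and says nothing of binding.

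**Figure D1:**
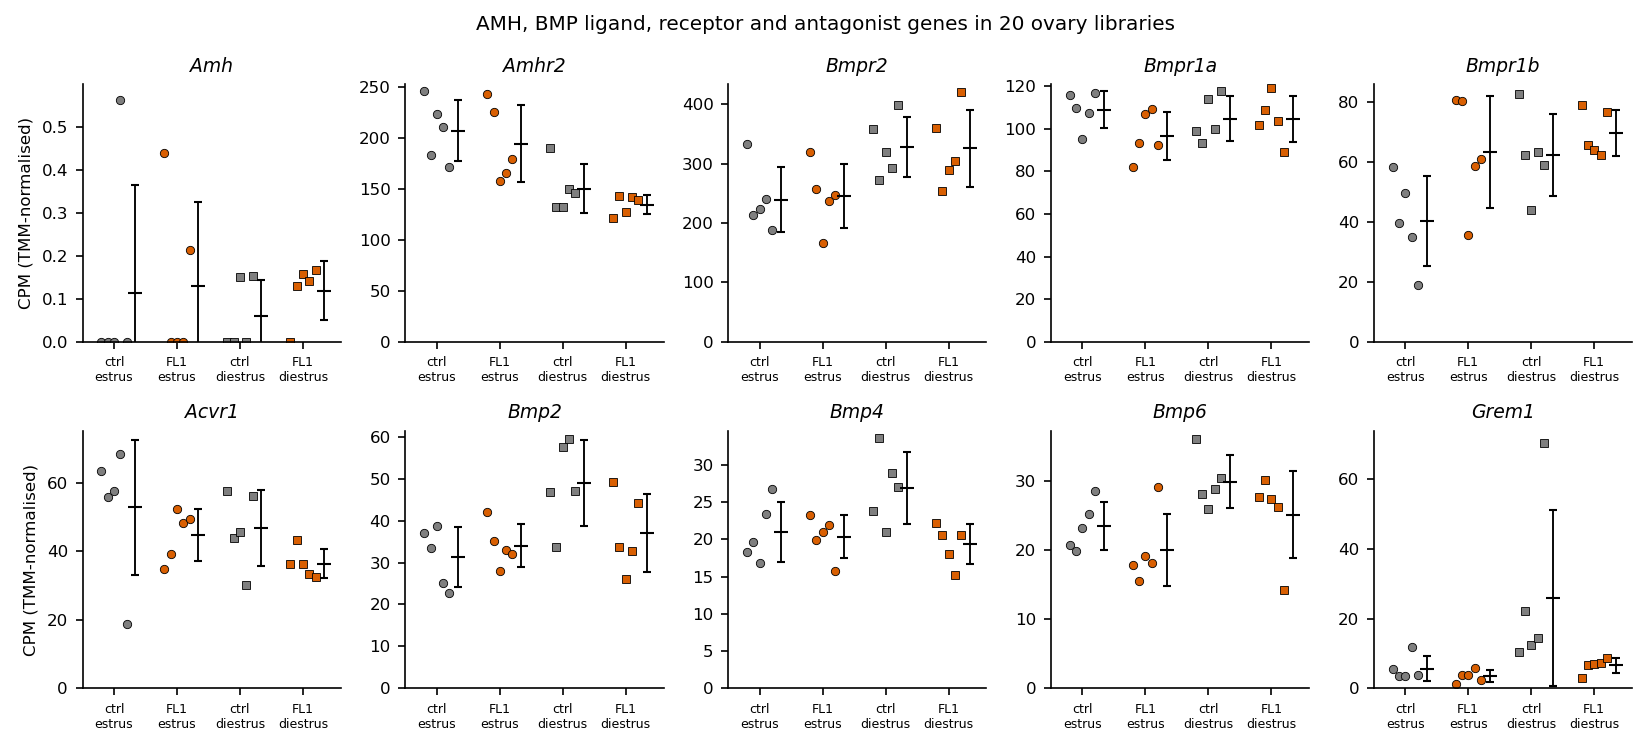
Levels of the 10 genes in each of the 20 libraries, in CPM on a linear axis that starts at 0. Circles are estrus and squares diestrus, grey is ctrl and orange FL1, with 5 libraries a group in replicate order, and the dash and bar beside them are the mean and SD (for *Amh* the lower bars run below the axis). *Amh* lies under 1 CPM throughout, *Amhr2* is higher in estrus than in diestrus in FL1, and *Grem1* in ctrl diestrus has 1 library at 70.4 CPM.

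*Amh* itself was almost absent from these counts. Its annotated gene (GRCm38, chr10:80805243-80807648, plus strand) received 17 counts over the 20 libraries. In estrus the counts were 0, 0, 0, 6 and 0 in ctrl and 3, 0, 0, 0 and 2 in FL1. In diestrus they were 0, 0, 1, 0 and 1 in ctrl and 0, 1, 1, 1 and 1 in FL1. Thus 11 libraries had no count and 17 had at most 1, no group stood apart, and the gene did not pass the filter on low counts in any comparison. A count of 0 allows a share of up to 3 counts of a library, which is 2.90e-05% to 5.01e-05% of its counts; this limit covers counting error only. The level of *Amh* therefore could not be compared between lines or stages at this depth. The last 300 bases of its transcript, where 3' reads fall, were 67.0% G and C, a share above that of 99.9% of 13053 genes tested (median 44.5%), and the part of base composition in the low counts was not tested. Its neighbours on the chromosome were counted: *Sf3a2*, which ends 319 bp before *Amh* on the same strand, had 292 to 694 counts, and *Jsrp1*, on the other strand 848 bp away, had 10 to 68.

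*Amhr2*, the receptor that AMH alone uses (chr15:102445367-102454633, plus strand), was well measured and was higher in estrus than in diestrus. In estrus its levels were 246, 183, 223, 211 and 172 CPM in ctrl and 243, 226, 158, 165 and 179.9 CPM in FL1. In diestrus they were 191, 132, 132, 149.6 and 146 CPM in ctrl and 122, 143, 128, 142 and 139 CPM in FL1. All 5 FL1 estrus libraries lay above all 5 FL1 diestrus libraries, whereas in ctrl the highest diestrus library (191 CPM) lay within the estrus range. In FL1 the log2 fold change (log2FC) of estrus against diestrus was 0.53 (SE 0.11, edgeR's quasi-likelihood test with Benjamini-Hochberg adjustment over all genes, adjusted p = 0.00476). In ctrl it was 0.46 (SE 0.13, adjusted p by edgeR = 0.0843), and 0.52 (SE 0.13, adjusted p by edgeR = 0.0406) without ctrl estrus replicate 5. With both lines in a fit of line and stage, *Amhr2* was 1.41-fold higher in estrus (log2FC 0.50, SE 0.09, adjusted p by edgeR = 0.000429). The summed granulosa cell markers averaged 2815 CPM in ctrl estrus and 3616 CPM in ctrl diestrus (exact permutation test, two-sided p = 0.159). In FL1 they averaged 3679 and 4048 CPM (exact permutation p = 0.460). The summed luteal cell markers were lower in estrus, 27875 against 48878 CPM in ctrl (exact p = 0.0238, and 0.0556 without ctrl diestrus replicate 3, 4 or 5) and 29715 against 46638 CPM in FL1 (exact p = 0.00794, the smallest these groups allow). Adjusted over 44 marker comparisons the exact p-values of the luteal sum were 0.0952 and 0.0582. The part of granulosa and luteal cells in the difference of *Amhr2* was not tested. Between lines *Amhr2* differed by a log2FC of -0.09 (SE 0.14) in estrus and -0.16 (SE 0.10) in diestrus, with overlapping groups and adjusted p by edgeR of 0.803 and 0.466.

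*Bmpr2*, the type II receptor of BMPs and of the oocyte factors GDF9 and BMP15 (chr1:59763400-59879014, plus strand), went the other way with stage. Its estrus levels were 332, 213, 223, 241 and 188 CPM in ctrl and 319.6, 257, 167, 237 and 248 CPM in FL1. Its diestrus levels were 358, 272, 319, 293 and 398 CPM in ctrl and 359.5, 254, 289.6, 304 and 421 CPM in FL1. The stages overlapped in both lines: in ctrl the estrus library at 332 CPM lay within the diestrus range, and in FL1 those at 319.6 and 257 CPM. Over both lines *Bmpr2* fell in estrus (log2FC -0.43, SE 0.12, adjusted p by edgeR = 0.0130), with log2FC of -0.46 (SE 0.15, adjusted p = 0.146) in ctrl and -0.41 (SE 0.15, adjusted p = 0.0816) in FL1 alone. With library size in place of TMM the log2FC over both lines was -0.36 and the adjusted p by edgeR was 0.0568. Between lines the log2FC was 0.03 (SE 0.17) in estrus and -0.01 (SE 0.14) in diestrus, and neither passed (adjusted p by edgeR = 0.949 and 0.976).

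The 3 type I receptors gave no call by edgeR in any comparison with all libraries. *Bmpr1a* (chr14:34410734-34503341, minus strand), which ovarian somatic cells use for BMPs and AMH, varied little, with group means of 96.7 ± 11.3 (FL1 estrus) to 108.9 ± 8.80 CPM (ctrl estrus; SD, n = 5). Its log2FC lay between -0.17 and 0.06 in the comparisons of line and of stage.

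*Bmpr1b* (chr3:141837136-142169425, minus strand), known in sheep for an allele that raises ovulation rate, varied more. Its estrus levels were 58.5, 39.6, 49.8, 35.0 and 19.0 CPM in ctrl and 80.9, 80.5, 35.8, 58.9 and 61.1 CPM in FL1. Its diestrus levels were 82.8, 62.5, 44.1, 63.5 and 59.2 CPM in ctrl and 79.0, 65.8, 64.1, 62.6 and 76.9 CPM in FL1. Ctrl estrus had the lowest mean and overlapped every other group except FL1 diestrus, whose lowest library (62.6 CPM) lay above the highest of ctrl estrus. The line difference in estrus was a log2FC of 0.64 (SE 0.26, adjusted p by edgeR = 0.244) and that of stage in ctrl -0.63 (SE 0.24, adjusted p by edgeR = 0.215); without ctrl estrus replicate 5 they were 0.47 and -0.46. Neither passed the threshold with or without that library.

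*Acvr1* (chr2:58388644-58567157, minus strand), the third of these receptors, turned on the same library. Its estrus levels were 63.6, 55.8, 57.6, 68.3 and 18.8 CPM in ctrl and 34.8, 39.1, 52.5, 48.4 and 49.5 CPM in FL1. Its diestrus levels were 57.7, 43.9, 45.8, 30.3 and 56.1 CPM in ctrl and 36.4, 43.4, 36.4, 33.3 and 32.6 CPM in FL1. The 18.8 CPM of ctrl estrus replicate 5 was the lowest of all 20 libraries, and the other 4 libraries of that group lay above every FL1 library. With all libraries *Acvr1* had a log2FC of -0.30 (SE 0.16) between lines over both stages and 0.24 (SE 0.16) between stages over both lines (adjusted p by edgeR = 0.312 and 0.354). Without that library the log2FC was -0.40 (SE 0.10, adjusted p by edgeR = 0.0180) between lines and 0.34 (SE 0.10, adjusted p = 0.0266) between stages.

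None of the 3 BMP ligands passed the threshold by edgeR with all libraries in the comparisons as designed. *Bmp2* (chr2:133552159-133562885, plus strand), a ligand of BMPR1A and BMPR1B, had estrus levels of 37.1, 33.4, 38.7, 25.2 and 22.7 CPM in ctrl and 42.0, 35.2, 28.1, 32.9 and 32.1 CPM in FL1. In diestrus it had 46.8, 33.8, 57.7, 59.5 and 47.0 CPM in ctrl and 49.1, 33.7, 25.97, 32.7 and 44.1 CPM in FL1. Of the ctrl diestrus libraries 4 lay above all of ctrl estrus, and the remaining one lay within it. The log2FC of estrus against diestrus was -0.64 (SE 0.18, adjusted p by edgeR = 0.0872) in ctrl and -0.13 (SE 0.16, adjusted p = 0.637) in FL1, and the difference of these differences did not pass (interaction log2FC 0.51, SE 0.26, adjusted p = 0.447). The difference in ctrl passed by DESeq2 (-0.64, adjusted p = 0.0270) and in 1 edgeR fit of all 20 libraries (adjusted p = 0.0370), and that over both lines passed by DESeq2 (-0.39, adjusted p = 0.0421) and in 3 of 20 edgeR fits that left out 1 library.

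*Bmp4* (chr14:46383520-46390669, minus strand), made by theca cells, was highest in ctrl diestrus, with 23.8, 33.7, 21.02, 28.9 and 27.0 CPM, beside 22.2, 20.7, 18.1, 15.3 and 20.7 CPM in FL1 diestrus. A single ctrl library, at 21.02 CPM, lay within the FL1 range. The log2FC of FL1 against ctrl was -0.47 in diestrus (SE 0.15, adjusted p by edgeR = 0.0999). In estrus the lines overlapped, with 16.8 to 26.7 CPM in ctrl and 15.7 to 23.3 CPM in FL1 (log2FC -0.04, SE 0.16, adjusted p = 0.928).

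*Bmp6* (chr13:38345107-38500302, plus strand), a ligand of ACVR1, had 20.8, 19.9, 23.2, 25.2 and 28.5 CPM in ctrl estrus and 17.9, 15.6, 19.2, 18.2 and 29.1 CPM in FL1 estrus. In diestrus it had 36.1, 28.0, 25.98, 28.8 and 30.4 CPM in ctrl and 27.6, 30.2, 27.4, 26.2 and 14.2 CPM in FL1. In FL1 the fifth library of each stage stood alone, the highest in estrus and the lowest in diestrus, and the other 4 of each stage did not overlap. Over both lines the log2FC of estrus against diestrus was -0.34 (SE 0.13, adjusted p by edgeR = 0.0742), and -0.38 (adjusted p by edgeR = 0.0443) without ctrl estrus replicate 5. Exons of *Bmp6* overlap those of *Txndc5* on the other strand, which had up to 1342 counts; whether the counting used the strand is not given in the sources used here, and if it did not, reads of both genes cannot be told apart. *Txndc5* had a log2FC of 0.12 (SE 0.09, adjusted p by edgeR = 0.464) between stages over both lines, and it was higher in estrus within FL1 (0.27, SE 0.09, adjusted p by edgeR = 0.0380). In diestrus its log2FC between lines was -0.29 (SE 0.09, adjusted p by edgeR = 0.0781).

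*Grem1* (chr2:113746164-113758646, minus strand) showed the largest differences of the 10 genes, both between lines and between stages, with the fewest counts of the 9 that were tested. In diestrus its levels were 10.5, 22.2, 12.3, 14.3 and 70.4 CPM in ctrl and 3.01, 6.80, 7.08, 7.36 and 8.83 CPM in FL1. In estrus they were 5.63, 3.64, 3.52, 11.8 and 3.69 CPM in ctrl and 1.17, 3.90, 3.88, 5.76 and 2.35 CPM in FL1. All 5 FL1 diestrus libraries lay below all 5 ctrl diestrus libraries, while in estrus the lines overlapped. Behind these levels stood 82 to 458 counts a library in ctrl diestrus, 21 to 53 in FL1 diestrus, 21 to 125 in ctrl estrus and 8 to 39 in FL1 estrus.

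In diestrus *Grem1* was lower in FL1 by a log2FC of -1.97 (SE 0.49, adjusted p by edgeR = 0.0370). The size of this difference leaned on ctrl diestrus replicate 5, without which it was -1.16 (SE 0.29, adjusted p by edgeR = 0.0414). The call was lost when ctrl diestrus replicate 2 or any one of the 5 FL1 diestrus libraries was left out (adjusted p by edgeR from 0.0545 to 0.0880, log2FC from -2.09 to -1.78). It was also lost by limma-voom with sample weights (-1.57, adjusted p by limma-voom = 0.0721). In estrus the log2FC was -0.75 (SE 0.43, adjusted p by edgeR = 0.427), and it moved to -0.28 (adjusted p by edgeR = 0.795) without ctrl estrus replicate 4. Over both stages *Grem1* was lower in FL1 (log2FC -1.42, SE 0.37, adjusted p by edgeR = 0.0196), and this call held in each of the 20 fits that left out 1 library. Between stages it was lower in estrus over both lines (log2FC -1.61, SE 0.37, adjusted p by edgeR = 0.00409), at -2.15 (SE 0.54, adjusted p = 0.0518) in ctrl and -0.96 (SE 0.37, adjusted p = 0.0882) in FL1. Without ctrl diestrus replicate 5 the difference in ctrl was -1.36 (SE 0.38, adjusted p by edgeR = 0.0778) and that over both stages between lines -0.96 (SE 0.27, adjusted p = 0.0368). The stage difference over both lines was then -1.16 (SE 0.27, adjusted p by edgeR = 0.00502). Whether the line difference itself changed with stage was tested by the interaction, which did not pass (1.20, SE 0.70, adjusted p by edgeR = 0.520), and was 0.40 (SE 0.55, adjusted p by edgeR = 0.818) without ctrl diestrus replicate 5.

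**Figure D2:**
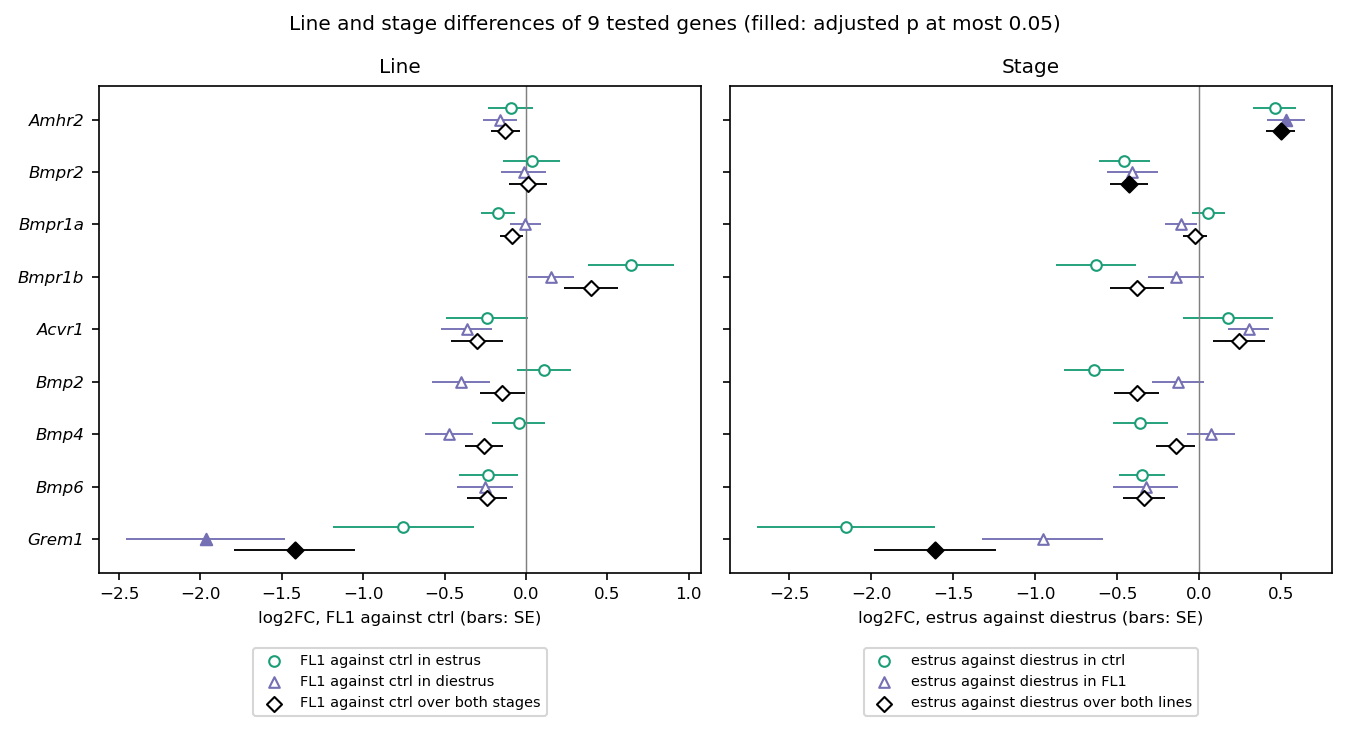
Log2FC of the 9 tested genes between lines (left, FL1 against ctrl) and between stages (right, estrus against diestrus), with bars of 1 SE; *Amh* was not tested. Green circles and violet triangles are the fits within 1 stage or line of 10 libraries and black diamonds the fit of line and stage over 20, and filled symbols have an adjusted p of at most 0.05. *Grem1* lies furthest to the left in both panels, and *Amhr2* alone lies to the right of 0 in a stage comparison that passed.

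The calls of the 10 genes were set beside those of all genes tested, with 9 of the 10 passing the filter in every comparison. Between lines in estrus 0 of 9 passed, against 2.33% of all genes, and 1 of 9 had an unadjusted p under 0.05, against 15.9% of all genes. DESeq2 and limma-voom called 0 of the 9 too, and DESeq2 called 647 of all genes. In diestrus 1 of 9 passed (*Grem1*), against 4.11%. The groups did not overlap for 0 of 9 in estrus and for 1 of 9 in diestrus, against 4.89% and 5.45% of all genes. Over both stages 1 of 9 passed between lines, against 6.74%. Counts this small beside such a background are no result about the 10 genes as a group.

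Between stages 0 of 9 passed in ctrl, against 2.85% of all genes, while 6 of 9 had an unadjusted p under 0.05, against 15.4%. DESeq2 called 3 of them and limma-voom 1, beside 788 and 655 of all genes. In FL1 1 of 9 passed (*Amhr2*), against 15.9%. The stages did not overlap for 0 of 9 in ctrl (4.52% of all genes) and for 1 of 9 in FL1 (12.2%). Over both lines 3 of 9 passed, *Amhr2* higher and *Bmpr2* and *Grem1* lower in estrus, against 14.8% of all genes, and the median absolute log2FC was 0.38 for the 9 genes and 0.17 for all. The interaction of line and stage passed for 0 of 9, against 0.0565% of all genes, with 0 at an unadjusted p under 0.05 (11.7% of all genes). DESeq2 and limma-voom called 0 of the 9 too, beside 150 and 31 of all genes. The comparisons of line and of stage share libraries and are not independent of each other. When the 4 groups were ordered by mean for each of the 10 genes, 29 of 30 neighbouring pairs overlapped, and the exception was *Grem1* in ctrl diestrus over *Grem1* in FL1 diestrus.

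The rest of the pathway was read from 48 further genes in 5 lists: 13 ligands, 7 receptors and co-receptors, 12 antagonists and binding proteins, 8 SMADs and their ubiquitin ligases, and 8 target genes. Of these, 37 were tested over all libraries. Between lines over both stages 2 rose and 2 fell in FL1, against 6.74% of all genes called. Between stages over both lines 6 were higher and 8 lower in estrus, against 14.8% of all genes called. Of 10 antagonists tested 2 were called between lines and 6 between stages; no list was tested as a group, and these counts say nothing particular to it. The 19 genes called in any comparison are given below by role.

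*Crim1*, a membrane protein that holds BMPs back in the cell that makes them, was higher in FL1 in estrus and in the fit over both stages. In estrus it had 139, 155, 155, 144 and 146 CPM in ctrl and 223, 266, 199, 247 and 231 CPM in FL1. In diestrus it had 327, 171, 198, 199.95 and 230.2 CPM in ctrl and 291, 264, 301, 310.1 and 347 CPM in FL1. It was higher in FL1 in estrus, with separate groups (log2FC 0.66, SE 0.10, adjusted p by edgeR = 0.00174), and over both stages (0.54, SE 0.09, adjusted p = 0.000567). In diestrus the ctrl library at 327 CPM lay within the FL1 range, and the line difference did not pass the threshold. *Crim1* was lower in estrus than in diestrus over both lines (-0.49, SE 0.09, adjusted p by edgeR = 0.000739). Within ctrl the stage call (-0.61, adjusted p = 0.0485) was kept in 2 of 10 fits that left out 1 library, and lost without ctrl estrus replicate 5 (adjusted p by edgeR = 0.0574).

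*Nbl1*, a secreted antagonist, was higher in estrus in ctrl (log2FC 0.76, SE 0.11, adjusted p by edgeR = 0.00360) and in FL1 (0.68, SE 0.10, adjusted p = 0.000140), with separate stages in both. Its lower level in FL1 over both stages (-0.24, SE 0.07, adjusted p by edgeR = 0.0387) was kept in 8 of 20 fits that left out 1 library, and lost without ctrl estrus replicate 5 (-0.21, adjusted p by edgeR = 0.0621). *Bmper*, which binds BMPs outside the cell, had the largest rise of the pathway genes that passed: 24.3 to 43.0 CPM in ctrl estrus against 6.30 to 16.7 CPM in diestrus, and 34.1 to 62.7 against 7.56 to 18.5 CPM in FL1 (log2FC over both lines 1.71, SE 0.20, adjusted p by edgeR = 1.62e-06). *Fstl3*, a follistatin-like protein that binds activin, rose with it (1.04, SE 0.13, adjusted p by edgeR = 3.82e-06).

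Besides *Crim1* and, among the 10 genes, *Grem1*, 2 antagonists fell in estrus over both lines. *Nog*, encoding noggin, was low throughout, at 0 to 1.47 CPM in the 10 estrus libraries and 0.547 to 3.54 CPM in diestrus (log2FC over both lines -1.60, SE 0.43, adjusted p by edgeR = 0.0128). *Chrdl1*, a chordin-like protein, had a log2FC of -0.73 (SE 0.24, adjusted p by edgeR = 0.0401), a call kept in 8 of 20 fits that left out 1 library and lost without ctrl estrus replicate 5 (-0.69, adjusted p by edgeR = 0.0525).

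**Figure D3:**
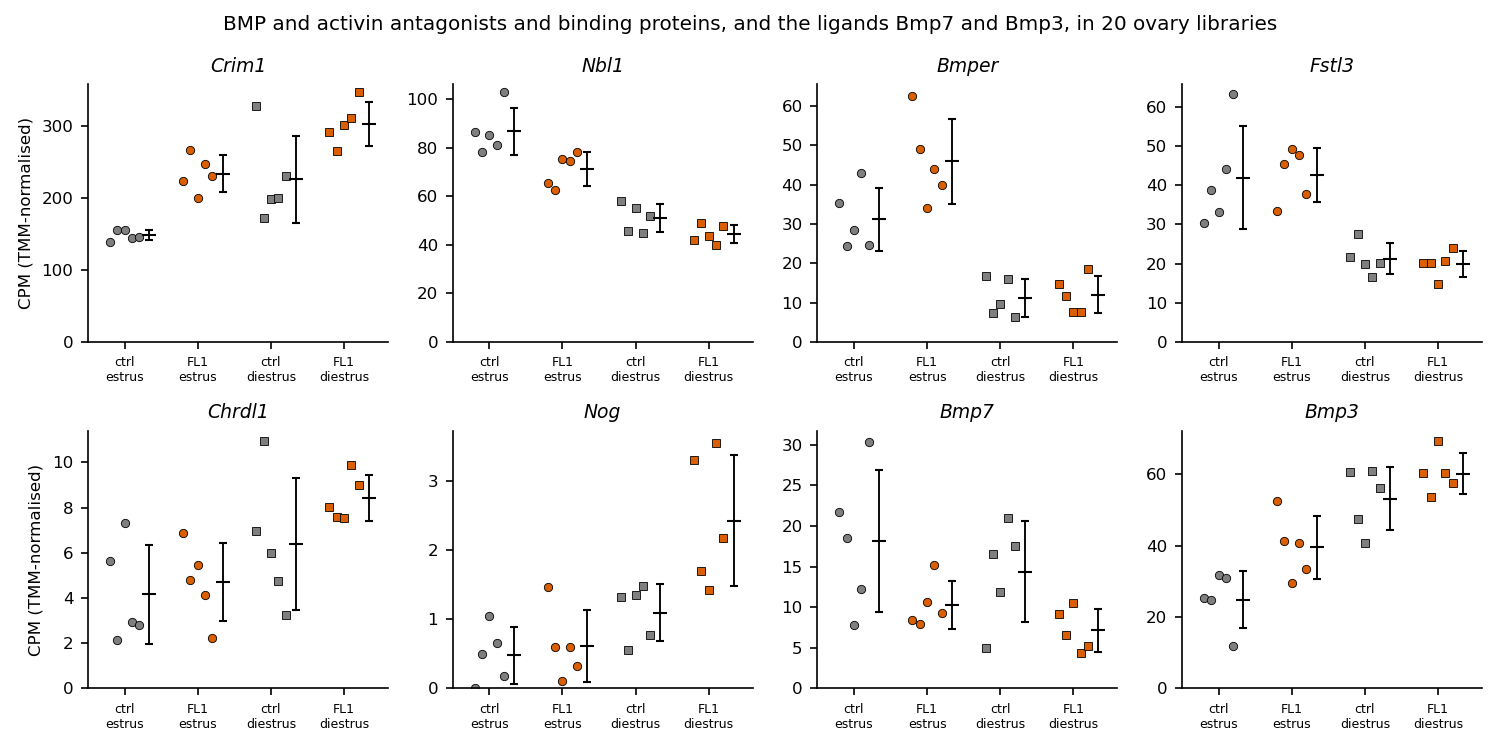
Levels of 6 antagonists and binding proteins and of the ligand genes *Bmp7* and *Bmp3* in each of the 20 libraries, in CPM on linear axes that start at 0, with the same symbols, means and SDs as the plot of the 10 genes. *Crim1* is higher in FL1 in estrus, at 199 to 266 against 139 to 155 CPM, and *Nbl1*, *Bmper* and *Fstl3* are higher in estrus in both lines.

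Among the other ligands *Bmp7*, a theca cell product, was lower in FL1 over both stages (log2FC -0.90, SE 0.24, adjusted p by edgeR = 0.0254), with 7.82 to 30.4 CPM in ctrl estrus, 7.95 to 15.2 CPM in FL1 estrus, 5.00 to 21.05 CPM in ctrl diestrus and 4.39 to 10.5 CPM in FL1 diestrus. The lines overlapped in both stages, and without ctrl estrus replicate 5 the log2FC was -0.78 and the adjusted p by edgeR was 0.0506. The call was also lost by limma-voom (-0.68, adjusted p = 0.0907) and with the replicate number as a block (-0.86, adjusted p by edgeR = 0.0565). The summed theca markers were lower in FL1 in estrus, 856 against 1383 CPM (exact permutation test, two-sided p = 0.0317, adjusted over 44 marker comparisons 0.116), and their part in the difference of *Bmp7* was not tested. *Bmp3*, which opposes other BMPs, was lower in estrus (-0.84, SE 0.14, adjusted p by edgeR = 0.000189). *Bmp1*, a protease that matures procollagen and cuts chordin and no BMP in the strict sense, was higher (0.45, SE 0.09, adjusted p by edgeR = 0.000741). *Bmp15*, an oocyte factor, was higher in estrus within FL1 (0.81, SE 0.24, adjusted p by edgeR = 0.0279), a call kept in 5 of 10 fits that left out 1 library.

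Of the 7 further receptors 3 passed between stages over both lines, against 14.8% of all genes, and the list was not tested as a group. *Acvr2a*, a type II receptor of activins and some BMPs, was lower in estrus over both lines (log2FC -0.39, SE 0.10, adjusted p by edgeR = 0.00766), as was the endothelial co-receptor *Eng* (-0.37, SE 0.11, adjusted p = 0.0297, kept in 14 of 20 fits that left out 1 library). The BMP co-receptor *Rgma* was higher (0.49, SE 0.12, adjusted p by edgeR = 0.00880). Summed endothelial markers were also lower in estrus within FL1, at 241 against 385 CPM (exact permutation test, two-sided p = 0.00794), and 307 against 338 CPM in ctrl (exact p = 0.405); their part in the difference of *Eng* was not tested.

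Of the signal transducers *Smad4*, the partner of all receptor-regulated SMADs, was higher in FL1 over both stages (log2FC 0.32, SE 0.08, adjusted p by edgeR = 0.0188) and in estrus (0.44, SE 0.10, adjusted p = 0.0412, kept in 3 of 10 fits that left out 1 library). *Smad1* was lower in estrus than in diestrus within FL1 (-0.87, SE 0.13, adjusted p by edgeR = 0.000220), besides its higher level in FL1 in diestrus (0.81, SE 0.13). *Smad7*, an inhibitory SMAD, was lower in estrus over both lines (-0.51, SE 0.14, adjusted p by edgeR = 0.0157). Among the targets of BMP signalling *Id1* was lower in estrus (-0.42, SE 0.11, adjusted p by edgeR = 0.00950) and *Id2* higher (0.57, SE 0.12, adjusted p = 0.00172), while *Hey1* was lower within FL1 (-0.95, SE 0.27, adjusted p = 0.0221).

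**Figure D4:**
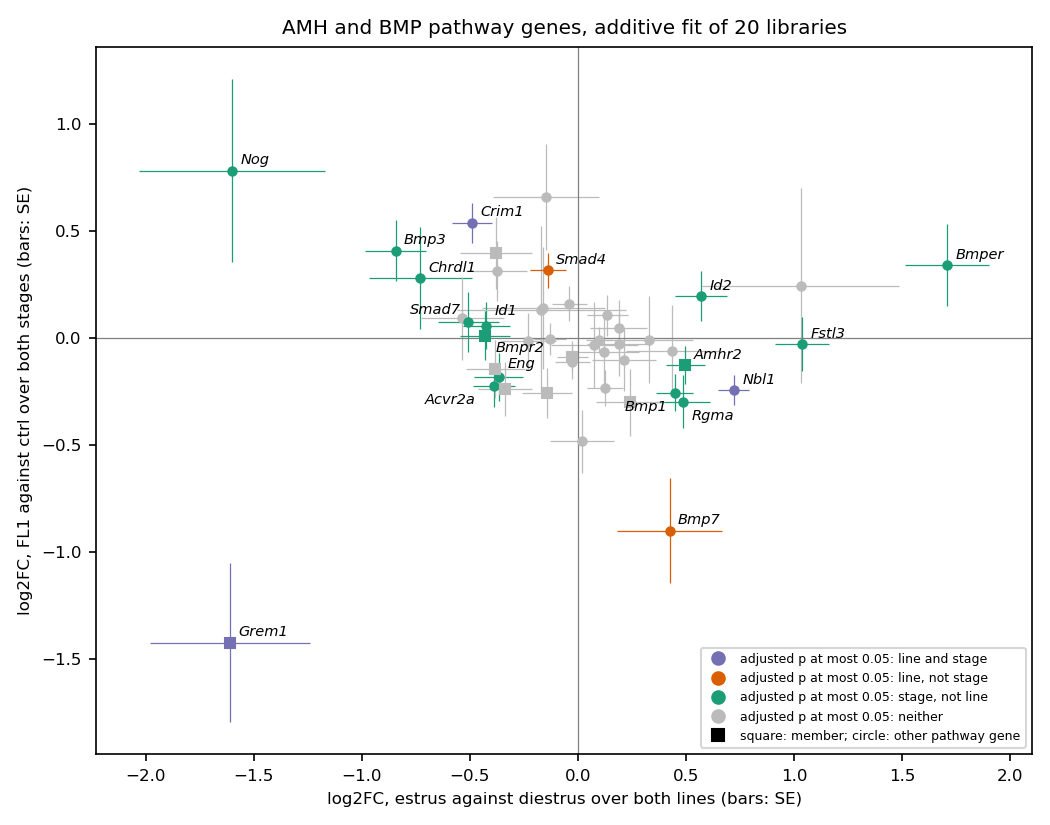
Log2FC between stages (horizontal, estrus against diestrus) against log2FC between lines (vertical, FL1 against ctrl) for the 46 pathway genes tested, from 1 fit of line and stage over 20 libraries, with bars of 1 SE. Squares are the genes of the main list and circles the other pathway genes; colours give the adjusted p of at most 0.05, and named genes passed in 1 or both. *Grem1* stands alone at lower left, *Bmp7* is lower in FL1, and *Bmper* lies furthest to the right.

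Which genes followed the members from library to library was described by Pearson's r of log2 CPM after the mean of each group was taken away, over 20 libraries and 11070 other genes of at least 5 CPM. The libraries share their depth and cell makeup, so r is given with no test. It was taken again without ctrl estrus replicate 5 and without ctrl diestrus replicate 5, a step chosen after the values were seen. Closest to *Amhr2* were *Serpine2* (0.88), *Nr5a2* (0.88), which encodes a nuclear receptor of granulosa and luteal cells, and *Sel1l3* (0.88). *Bmpr1b* went most with *Heph* (0.92), *Zfp385b* (0.90) and *B3galnt1* (0.89), and the last 2 also stood near the top for *Bmpr2* (0.84 and 0.82), behind *Csrnp3* (0.86). *Acvr1* went with *Pnrc1* (0.92), *Msrb3* (0.91) and *Ctnnd1* (0.89), a likeness that leaned on ctrl estrus replicate 5, without which r was 0.72, 0.72 and 0.57 and they stood at places 53, 52 and 299 among the closest genes. *Grem1* went with *Thbd* (0.86), *Npr3* (0.80) and *Dtwd1* (0.79), and without ctrl diestrus replicate 5 these were 0.82, 0.68 and 0.68. For the others the closest genes were *Trove2* (0.80), *Noc3l* (0.80) and *Malat1* (0.78) for *Bmpr1a*, *Ints9* (0.83), *Fam117b* (0.81) and *Zadh2* (0.81) for *Bmp2*, *Elf1* (0.77), *Pdk3* (0.77) and *Got2* (0.75) for *Bmp4*, and *Slc39a8* (0.86), *Snx17* (0.77) and *H2-Aa* (0.75) for *Bmp6*. Among the 9 genes themselves *Amhr2* and *Bmpr1b* went together most (r = 0.76), then *Bmpr2* and *Bmpr1b* (0.69) and *Amhr2* and *Bmpr2* (0.61), and *Bmpr1a* ran against *Bmpr1b* (-0.53). Without ctrl estrus replicate 5 these 4 were 0.76, 0.67, 0.57 and -0.53, whereas r of *Acvr1* with *Bmpr1b* went from 0.42 to -0.27.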

How the data were processed

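Total RNA of whole ovaries was made into QuantSeq 3' libraries and sequenced by the authors, who aligned reads with STAR 2.6.0a to GRCm38 with the Ensembl 95 annotation, per the methods. The deposited files hold whole-number counts per gene, 1 file a library; the authors did not normalize them, and neither the counting tool's strand setting nor a use of molecular identifiers is given in the sources used here. Symbols and positions came from GENCODE M21, which held 54809 of the 54838 genes.

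Each comparison was fitted on the whole table with edgeR 4.0.16 (TMM, filterByExpr with a minimum count of 10, quasi-likelihood test) in R 4.3.3, with Benjamini-Hochberg adjustment over all genes tested and a threshold of 0.05. Lines were compared within each stage and stages within each line on 10 libraries, and line, stage and their interaction on all 20. The scripts were tested on simulated data. Summed CPM of 11 marker lists were compared by exact two-sided permutation over 252 splits, with Benjamini-Hochberg adjustment over 44 comparisons; 1 marker gene was not found.

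All 10 genes were named, with every gene of the 5 pathway lists that passed in any comparison and the 3 genes closest to each by r. The genes and lists were chosen with earlier results of these data known. Alternatives were DESeq2 1.42.0, limma-voom 3.58.1 with sample weights, DESeq2 size factors, library size alone, other count filters, a joint fit of every library, a block for the replicate number, and leaving out each library in turn. Replicates are separate females. 1 further pathway gene was left out of the lists and is not reported here.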

Additional observations from a re-analysis of the deposited data

Results flagged for a closer look

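Single libraries that stood apart from the other 4 of their group were screened with Dixon's test at its 95% critical value for 5 samples, over 116 groups of values; 8 were found, and chance alone flags about 1 in 20 groups. *Grem1* had 70.4 CPM in ctrl diestrus replicate 5, where the nearest library had 22.2 CPM, and 11.8 CPM in ctrl estrus replicate 4, where the nearest had 5.63 CPM. *Acvr1* had 18.8 CPM in ctrl estrus replicate 5, and the nearest had 55.8 CPM. *Bmp6* had 29.1 CPM in FL1 estrus replicate 5 beside a nearest value of 19.2 CPM, and 14.2 CPM in FL1 diestrus replicate 5 beside 26.2 CPM. *Hey1* had 13.9 CPM in FL1 diestrus replicate 2, with the nearest at 7.59 CPM, and without that library its stage difference in FL1 no longer passed the threshold. *Amh* had 0.565 CPM in ctrl estrus replicate 4, where the other 4 libraries had 0, and 0 CPM in FL1 diestrus replicate 1, where the others had at least 0.131 CPM; both rest on 6 counts or fewer. The causes were not tested.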

How the results depend on the processing

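Depth limits *Amh* above all, with 17 counts in all, and then *Grem1* and *Nog*. Counts of all genes called moved by over 1.5 times in 4 comparisons. Between lines in estrus 311 genes were called by the test reported, 647 by DESeq2, 477 with a filter of at least 1 count in total, 531 with 1 fit of all 20 libraries, and 175 to 418 with 1 library left out. In diestrus the counts were 545 as reported, 861 by DESeq2, 846 with the 1-count filter and 349 to 594 with 1 library left out. Between stages in ctrl they were 380, 788 by DESeq2, 655 by limma-voom, 909 with 1 fit and 176 to 516 with 1 library left out. The interaction gave 8, then 150 by DESeq2, 31 by limma-voom, 17 with the 1-count filter and 0 to 15 with 1 library left out.

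Of the 10 genes, 1 was called between lines in diestrus, 0 by limma-voom and 0 to 2 with 1 library left out. Between stages in ctrl 0 were called, 3 by DESeq2, 1 by limma-voom, 1 with the 1-count filter, 3 with 1 fit and 0 to 2 with 1 library left out. Between stages in FL1 1 was called, 2 by DESeq2, 2 by limma-voom, 3 with the 1-count filter and 1 to 3 with 1 library left out. Over both stages the line comparison called 1, 0 where at least 10 counts in every library were required, which *Grem1* did not meet, and 1 to 2 with 1 library left out. Over both lines the stage comparison called 3, and 3 to 5 with 1 library left out, 5 being the count without ctrl estrus replicate 5. *Amhr2* in FL1 and over both lines was called under every alternative run.

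Signs changed for uncalled differences near 0 alone. With 1 library left out the log2FC of *Bmp4* ran from -0.11 to 0.057 between lines in estrus and from -0.0068 to 0.15 between stages in FL1, that of *Bmpr1b* from -0.24 to 0.015 between stages in FL1, and that of *Bmpr1a* from -0.054 to 0.049 between lines in diestrus and from -0.050 to 0.0043 between stages over both lines. That of *Bmpr2* ran between lines from -0.081 to 0.18 in estrus, -0.12 to 0.066 in diestrus and -0.042 to 0.080 over both stages. By limma-voom *Bmpr2* had -0.032, 0.030 and -0.017 in these 3, and *Bmpr1a* 0.017 in diestrus. With library size alone *Bmpr1a* had 0.0092 between lines in diestrus and 0.033 between stages, and *Bmpr2* 0.0033 in diestrus. The causes were not tested.

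Replicate numbers recur in all groups but belong to different females. The deviations of same-numbered libraries correlated at -0.10 to 0.13, with 1 to 2 of 5 libraries closest to their own number, so the numbers do not pair the libraries. With the replicate number as a block 3 of the 10 genes were called between stages in FL1 in place of 1, *Bmpr2* (edgeR's adjusted p = 0.0320) and *Grem1* (0.0394) besides *Amhr2*.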

Other observations

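Summed markers of the cell types of the ovary and of tissue beside it were compared between stages and between lines. In FL1 the summed luteal markers were lower in estrus, with separate groups, as were those of theca (856 against 1420 CPM) and endothelium (241 against 385 CPM), while those of surface epithelium (216 against 132 CPM) and fat (69.5 against 33.3 CPM) were higher, each at an exact permutation p of 0.00794, the smallest possible. Blood markers were lower in FL1 estrus (1211 against 2511 CPM, exact p = 0.0238), and smooth muscle markers were higher in estrus in both lines (1522 against 971 CPM in ctrl and 1455 against 1111 CPM in FL1, exact p = 0.0238 in each). Macrophage markers were higher in estrus in ctrl (294 against 219 CPM, exact p = 0.0397, and 0.0794 without ctrl estrus replicate 5). Between lines, FL1 in estrus had more of the surface epithelium sum (216 against 154 CPM, exact p = 0.00794) and less of the endothelium sum (241 against 307 CPM, exact p = 0.0159) and theca sum (856 against 1383 CPM, exact p = 0.0317), and FL1 in diestrus had more of the macrophage sum (355 against 219 CPM, exact p = 0.0397). Without ctrl estrus replicate 5 the log2 difference of the endothelium sum went from -0.33 to -0.20 (exact p = 0.0476). Oocyte, granulosa and oviduct sums reached no exact p under 0.05 in any comparison, and adjusted over the 44 comparisons the smallest p was 0.0582. With 1 library left out the exact p of the macrophage sum rose above 0.05 in 7 of 10 cases between stages in ctrl (highest 0.0952) and 6 of 10 between lines in diestrus (highest 0.0794), that of the theca sum in 4 of 10 between lines in estrus (highest 0.0794), and that of the luteal sum in 3 of 10 between stages in ctrl (0.0556 in each). The part of these sums in the differences of the 10 genes was not tested.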
